A study of Mus musculus with 16 samples.

Results

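The 9 genes described here make, sense and clear prostaglandin E2 (PGE2) in cells of the renal medulla. They encode the cyclooxygenases Ptgs1 and Ptgs2, the PGE synthases Ptges, Ptges2 and Ptges3, the PGE2 receptors Ptger1, Ptger3 and Ptger4, and Hpgd, the first enzyme of prostaglandin breakdown. They were chosen by symbol from the 55367 genes of the count tables, not by a cut on their values but with earlier results of these data known. All 9 were found. After the filter on low counts 19509 genes were tested, among them 8 of the 9, and Hpgd was not tested.

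RNA-seq was performed in mIMCD3 cells, a mouse inner medullary collecting duct line, with 2 biological replicates in each of 8 conditions, 16 libraries in all. WT cells received the solvent DMSO or 10 μM sulforaphane (SFN), an electrophile that activates the transcription factor Nrf2, for 5 h. They were then sampled in isosmotic medium (300 mOsm) or after 1 h or 6 h in medium raised to 600 mOsm with NaCl and urea. Nrf2-/- cells, made by CRISPR/Cas9 with lentiviral delivery and drug selection, received SFN and were sampled in isosmotic medium or after 1 h at 600 mOsm. Nrf2-/- cells given DMSO and Nrf2-/- cells at 6 h were not analysed here, so every genotype comparison is between SFN-treated cells. Whether the Nrf2-/- line is 1 clone or a pool is not given in the sources used here, and loss of Nrf2 and the history of the selected line cannot be told apart.

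Cyclooxygenases convert arachidonic acid, released from membranes by phospholipases, to the prostaglandin PGH2, which the PGE synthases turn into PGE2. Ptgs1 is usually regarded as the constitutive form and Ptgs2 as the inducible form, and in the renal medulla hypertonicity is a known inducer of Ptgs2. PGE2 acts through 4 receptors, of which Ptger3 (EP3) lowers cyclic AMP, Ptger2 (EP2) and Ptger4 (EP4) raise it, and Ptger1 (EP1) raises cell calcium, and in the collecting duct it modulates salt and water reabsorption.

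Library totals lay between 34484296 and 50774875 counts. The biological coefficient of variation between the replicates of a condition was 0.0393 to 0.128 in 7 conditions and 0.348 in Nrf2-/- cells at 1 h, whose replicates stood apart from each other. Nfe2l2, the gene of Nrf2, was at no more than 11.6 CPM (library counts scaled by TMM) in the Nrf2-/- libraries and at 64.0 to 149 CPM in the WT libraries. Of 18 collecting duct markers, 15 passed the filter, among them the keratins Krt8 and Krt18, while the vasopressin-regulated water channel Aqp2 reached at most 0.323 CPM and Aqp4, Avpr2 and Emx1 were not tested. The epithelial markers of the line were thus present and the defining markers of the differentiated principal cell were at or near 0.

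In isosmotic DMSO-treated cells the pathway was led by 2 genes. Levels between genes were compared as CPM per kilobase of exon (CPM/kb). Ptges3, the cytosolic PGE synthase that is also the p23 co-chaperone, stood at 146 ± 13 CPM/kb (SD, n = 2), rank 279 of 19048 genes with a length. Ptgs2 stood at 70.9 ± 5.81 CPM/kb, rank 690, and the 2 genes did not overlap. Ptger4 followed at 15.9 ± 0.419 CPM/kb and Ptges2, a membrane-associated synthase, at 7.93 ± 0.517 CPM/kb. Ptgs1 stood at only 0.491 ± 0.0176 CPM/kb.

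The remaining genes were close to the limit of detection. Ptges, the inducible microsomal synthase that is often coupled to Ptgs2, had 0 to 20 counts per library over all 16 libraries. Ptger1 had 8 to 35 counts, and its level is uncertain because the strand setting of the counting is not given. Hpgd had 0 counts in 12 libraries and at most 8 in the others. A count of 0 allows up to 3 counts in a library, or 0.0556 to 0.0935 CPM. Ptger2, the fourth PGE2 receptor, which was not among the 9 genes, had 0 counts in all 16 libraries. Among counts of 1 to 10 in a library, 58.0% to 68.5% were even, so counts may not be independent of each other. Such limits, and the counting intervals below, cover counting error only, treat counts as independent and may be too narrow.

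**Figure D1:**
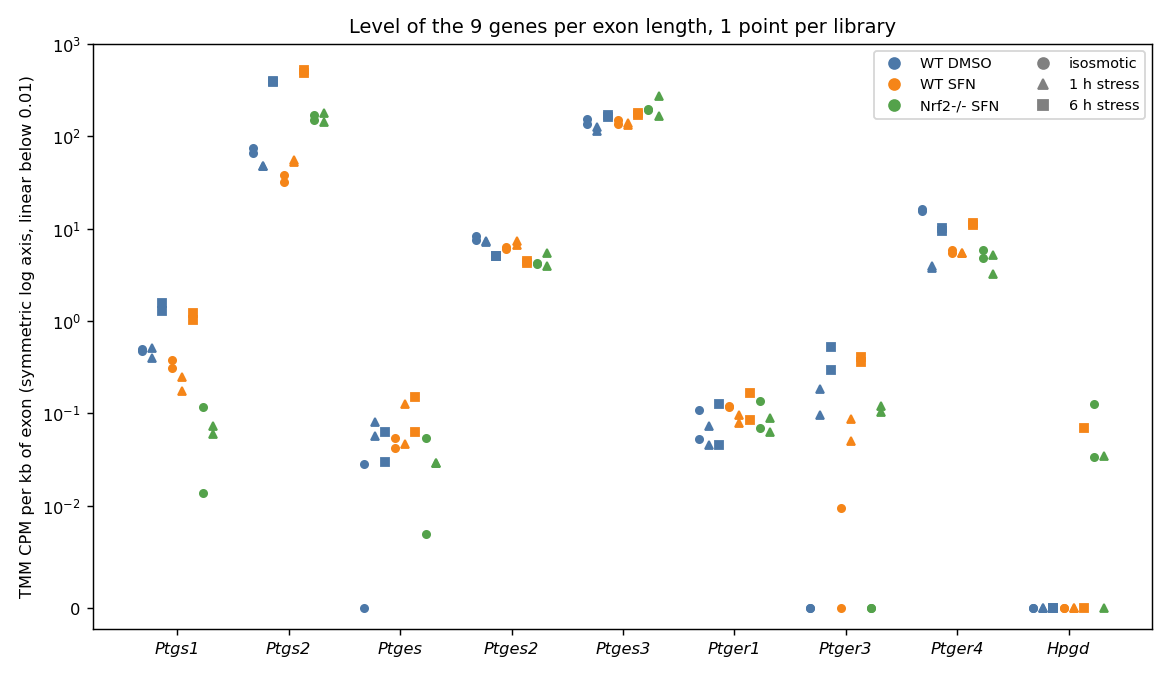
Level of each gene in each library as TMM-scaled CPM per kilobase of exon on a symmetric log axis that is linear below 0.01. Each point is 1 library, colour gives genotype and pretreatment, and shape gives the osmotic condition. Ptgs2 and Ptges3 hold the top of the plot in every condition, and Ptgs2 is the gene that moves furthest among the abundant ones, from 31.9 to 529 CPM/kb.

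The order at the top changed with the condition. In DMSO-treated cells after 6 h of stress Ptgs2 reached 396 ± 7.24 CPM/kb (SD, n = 2), rank 103, and Ptges3 stood at 167 ± 6.91 CPM/kb, with no overlap between the libraries. In SFN-treated cells after 6 h it reached 507 ± 30.6 CPM/kb, rank 67. In isosmotic SFN-treated cells it was lowest, at 34.9 ± 4.26 CPM/kb, rank 1511.

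The loci of Ptgs2 and Ptger4 are shown because these were the 2 genes whose level fell with SFN. Ptgs2 (chr1:150100031-150108227, plus strand, GRCm38, GENCODE M21) starts 68 bp from the start of Ptgs2os, a noncoding transcript on the opposite strand. Ptger4 (chr15:5206661-5244187, minus strand) overlaps the opposite-strand gene Ttc33 over 1.23% of its exonic bases and the pseudogene Gm15937 over 15.3%. The 250 bases before each start, from RefSeq on GRCm38.p6, are chr1:150099781-150100030 on the plus strand and chr15:5244188-5244437 on the minus strand, written 5′ to 3′ along the gene. Capitals mark motif matches, TTGCGCAA for C/EBP in Ptgs2 and TTTCCA, the reverse complement of the NFAT5 core TGGAAA, in Ptger4.
Ptgs2: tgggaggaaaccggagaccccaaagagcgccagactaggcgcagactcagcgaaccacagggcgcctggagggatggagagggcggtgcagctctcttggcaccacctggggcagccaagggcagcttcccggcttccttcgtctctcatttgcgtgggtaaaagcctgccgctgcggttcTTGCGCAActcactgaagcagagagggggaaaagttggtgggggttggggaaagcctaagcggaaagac
Ptger4: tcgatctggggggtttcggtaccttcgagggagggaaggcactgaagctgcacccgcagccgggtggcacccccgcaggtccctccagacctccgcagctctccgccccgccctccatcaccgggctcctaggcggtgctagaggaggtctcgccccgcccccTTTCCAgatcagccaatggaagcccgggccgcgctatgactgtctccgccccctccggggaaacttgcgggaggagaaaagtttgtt

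Both strands of a window of 300 bases, 250 before and 50 after the start, were searched for 6 motifs in the 8 genes with a RefSeq window, which Ptger1 lacked. TTGCGCAA lay 69 to 62 bases before the Ptgs2 start, and 0.183% of 32851 windows held it. Just after the Ptgs2 start lay the cyclic AMP response element core TGACG, read on the opposite strand (bases 14 to 18, held by 20.8% of windows), and the E-box CACGTG (bases 17 to 22, 7.15%), which overlap. The TGGAAA match of Ptger4 lay 87 to 82 bases before its start, and 21.4% of windows held that motif. Ptges2 and Ptges3 held TGGAAA as well. The antioxidant response element core TGACNNNGC, the sequence that Nrf2 dimers bind, was held by 12.4% of windows and among these genes by Ptges3. NF-kB motifs were held by 8.46% of windows and likewise by Ptges3. A match is a description of letters, and no match says only that the letters are not in this window.

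The first question was how the genes responded to hyperosmotic stress in DMSO-treated cells. After 1 h, Ptgs2 and Ptger4 fell and Ptger3 rose, 3 of the 8 tested genes, where 11.2% of all tested genes were called (7.1% higher and 4.11% lower). After 6 h, Ptgs1, Ptgs2 and Ptger3 had risen and Ptges2 and Ptger4 had fallen, 5 of 8, against 45.9% of all tested genes (23.9% higher and 22% lower). Both comparisons share the isosmotic DMSO libraries. The cells were sequenced in bulk, so fewer cells of a kind and less RNA per cell cannot be told apart.

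Ptgs2, the inducible cyclooxygenase, had 343 and 306 CPM in the isosmotic libraries, 218 and 218 CPM at 1 h and 1838 and 1791 CPM at 6 h. The 3 conditions did not overlap, and the course was first down and then steeply up. The log2 fold change was -0.57 ± 0.12 (SE) at 1 h (adjusted p = 0.00698, edgeR's quasi-likelihood test with Benjamini-Hochberg adjustment, as for all adjusted p-values here) and 2.48 ± 0.13 at 6 h (adjusted p = 3.32e-09), a 5.59-fold rise. Among all tested genes, 2085 were called with a larger rise at 6 h. From 1 h to 6 h, 5 of the 8 genes rose and 1 fell, where 42.4% of all tested genes were called (20.4% higher and 22% lower), and Ptgs2 rose 8.32-fold (edgeR adjusted p = 4.97e-10). The fall at 1 h lost its call when isosmotic replicate 1 (adjusted p = 0.0692), 1 h replicate 1 (0.0619) or 1 h replicate 2 (0.0561) was left out of the edgeR fit.

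Ptgs2os, the divergent neighbour of Ptgs2, had 2.12 and 2.34 CPM in isosmotic cells, 1.56 and 2.31 CPM at 1 h and 7.79 and 6.58 CPM at 6 h. It rose with Ptgs2 at 6 h (log2 fold change 1.69 ± 0.26, edgeR adjusted p = 9.28e-05), while at 1 h its log2 fold change was -0.21 ± 0.27 (adjusted p = 0.701).

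Ptgs1 (chr2:36230426-36252272, plus strand), the other cyclooxygenase, had 1.95 and 1.86 CPM in isosmotic cells, 1.97 and 1.56 CPM at 1 h, and 4.98 and 6.11 CPM at 6 h. Only the 6 h libraries stood clear of the rest, with a 2.91-fold rise (edgeR adjusted p = 0.00563). Per kilobase, Ptgs2 remained the larger cyclooxygenase throughout, at 149 and 140 times the level of Ptgs1 in the isosmotic libraries, 94.1 and 118 times at 1 h and 313 and 248 times at 6 h.

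Ptger4 (EP4) moved the other way from Ptgs2 at 6 h. It had 108 and 104 CPM in isosmotic cells, 25.9 and 25.0 CPM at 1 h and 68.3 and 62.9 CPM at 6 h. It fell 4.15-fold at 1 h (log2 fold change -2.05 ± 0.17, edgeR adjusted p = 3.28e-06), rose again 2.58-fold from 1 h to 6 h (adjusted p = 1.24e-05) and at 6 h was still 1.61-fold below the isosmotic level (adjusted p = 0.00307). Its overlapping neighbour Ttc33 had a log2 fold change of 0.04 at 1 h (edgeR adjusted p = 0.91) and of -1.32 at 6 h (adjusted p = 8.87e-06). The pseudogene Gm15937, which overlaps 15.3% of the exonic bases of Ptger4 where Ttc33 overlaps 1.23%, was not examined.

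Ptger3 (EP3, chr3:157566892-157645888, plus strand) appeared from 0. It had 0 and 0 counts in isosmotic cells, 24 and 39 counts at 1 h and 104 and 55 counts at 6 h. Against 3 counts per library the mean CPM was at least 11.4-fold higher at 1 h (edgeR adjusted p = 0.00101) and at least 34.2-fold higher at 6 h (adjusted p = 1.53e-05). The gene passed the filter through the stressed libraries alone and remained rare, at 0.414 CPM/kb at 6 h. Of the 1306 tested genes with 0 counts in both isosmotic DMSO libraries, 42.9% were called higher at 1 h and 67.4% at 6 h. These genes, like Ptger3, could pass the filter only through other libraries, which raises the share called higher. Its nearest coding gene upstream on the same strand, Zranb2, ends 18482 bp away. Markers of other cell types, all low, moved as well. The summed endothelial markers, 4 of 5 tested, went from 0.0476 to 0.177 CPM in isosmotic libraries to 0.520 to 0.742 CPM at 1 h and 4.54 to 4.58 CPM at 6 h, and the 1 tested thick limb marker of 3 rose too, with Umod at 0 throughout. Fibroblast markers (4 of 7 tested) went from 2.81 to 3.19 CPM to 6.11 to 7.69 CPM at 6 h, leukocyte markers (4 of 5) from 7.62 to 8.58 CPM to 14.0 to 17.7 CPM, and proximal tubule markers (3 of 5) from 9.06 to 11.5 CPM to 21.2 to 27.5 CPM. The part of these genes in the Ptger3 result was not tested. The rise of Ptger3 from 1 h to 6 h (edgeR adjusted p = 0.0287) was lost without 1 h replicate 1 (0.212) or 6 h replicate 1 (0.246).

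Among the synthases, Ptges2 (chr2:32395896-32405772, plus strand) had 38.3 and 42.0 CPM in isosmotic cells, 37.0 and 36.3 CPM at 1 h and 25.9 and 25.6 CPM at 6 h. It fell 1.56-fold at 6 h (edgeR adjusted p = 0.00161) and was not called at 1 h (adjusted p = 0.637). Ptges3 (chr10:128058954-128077272, plus strand) had 303 and 344, 277 and 256, and 360 and 382 CPM in the same order. Neither time was called against the isosmotic level (edgeR adjusted p = 0.339 and 0.359), and the difference between 6 h and 1 h (log2 fold change 0.48 ± 0.17, adjusted p = 0.0309) lost its call when any 1 of the 4 libraries was left out, at adjusted p = 0.0791 to 0.164. Reads of Ptges3 may be shared with the processed pseudogene Ptges3-ps, which lay at 45.8 to 101 CPM over all libraries. Per kilobase the pseudogene stood at a mean of 122 CPM/kb in isosmotic DMSO-treated cells, beside 146 CPM/kb for Ptges3. How many reads are shared was not tested. Ptges (chr2:30889471-30929863, minus strand) went from 0 and 5 counts to 4 and 8 counts at 6 h and did not pass the test (edgeR adjusted p = 0.285). Ptges and Ptger1 were called in none of the 14 comparisons, with a lowest edgeR adjusted p of 0.261 for Ptges and 0.52 for Ptger1.

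**Figure D2:**
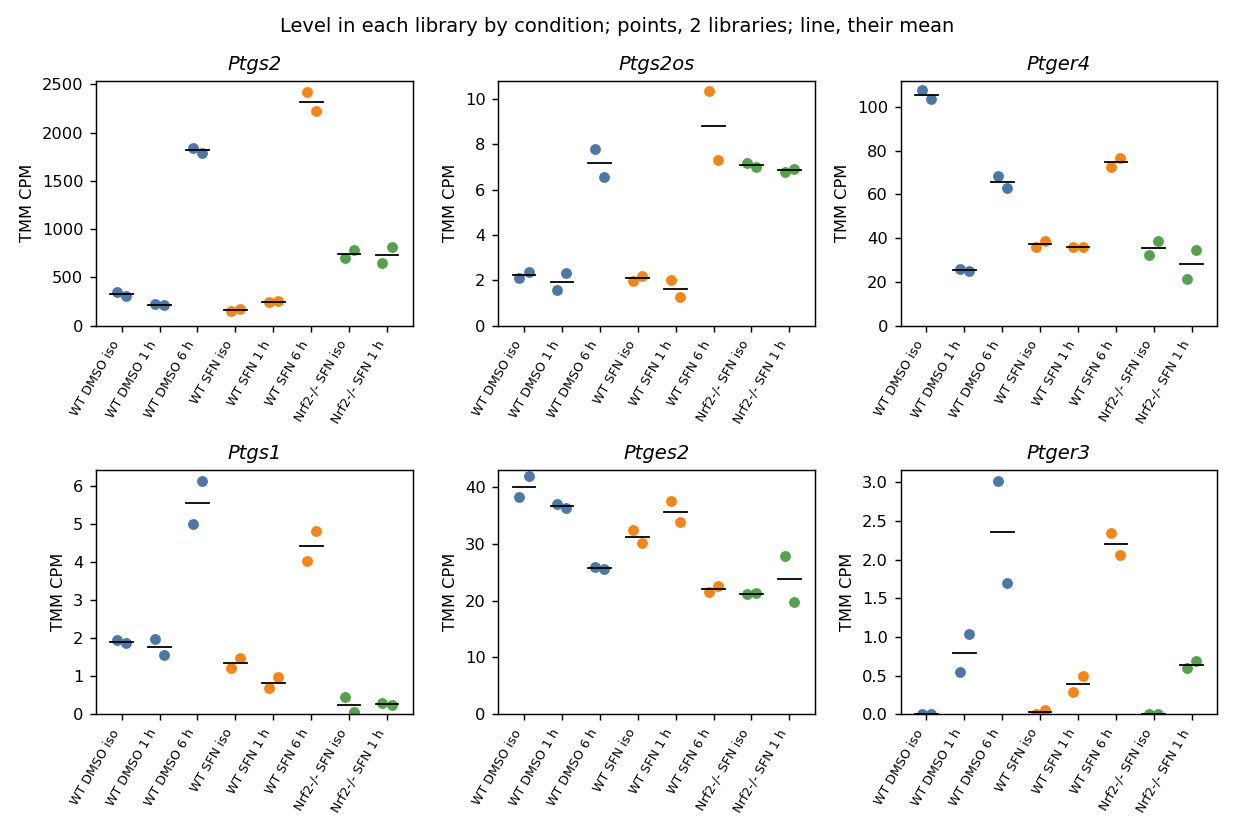
TMM-scaled CPM in each library for 5 of the genes and for Ptgs2os, the divergent neighbour of Ptgs2, in the 8 conditions. Points are the 2 libraries of a condition, lines are their means, and every axis starts at 0. Ptgs2 climbs to 1791 CPM or more in all 6 h libraries and is also high in the Nrf2-/- libraries, at 652 to 813 CPM, while Ptger4 is highest, at 104 and 108 CPM, in isosmotic DMSO-treated cells.

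Other genes of prostanoid metabolism were counted by list at 6 h in DMSO-treated cells, where 45.9% of all tested genes were called (23.9% higher and 22% lower). Of 8 other prostanoid synthases tested, 3 rose and none fell, a share near that of all genes. The largest in level was Akr1b3, aldose reductase, which makes the osmolyte sorbitol and can make PGF2α, at a mean of 360 CPM before and 5606 CPM after 6 h (log2 fold change 3.96, edgeR adjusted p = 8.16e-12). Akr1c18 went from 0.0221 to 4.01 CPM and Hpgds, a PGD2 synthase, from 0.213 to 0.786 CPM. Of 4 other prostanoid receptors tested, 3 rose, namely the PGF2α receptor Ptgfr from 0 to 1.31 CPM, the thromboxane receptor Tbxa2r from 0.345 to 3.37 CPM and the PGD2 receptor Ptgdr2 from 0.296 to 0.968 CPM. The receptors of this group were thus low in level before and after. Ptgfr and Akr1c18 were at or near 0 outside the 6 h conditions and could pass the filter only through the 6 h libraries. Of the 1306 tested genes with 0 counts in both isosmotic DMSO libraries, 67.4% were called higher at 6 h.

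Of 9 phospholipases of arachidonate release tested, 4 rose and 1 fell at 6 h, beside the same 45.9% of all tested genes. Pla2g4c rose from a mean of 2.63 to 15.96 CPM (log2 fold change 2.60, edgeR adjusted p = 2.5e-06), and Pla2g3, Pla2g4f and Pla2g10 rose to at most 2.23 CPM. Pla2g4f and Pla2g10 were at or near 0 in all isosmotic conditions and could pass the filter only through stressed libraries. The one that fell, Pla2g6, named after its values were seen, went from 40.5 to 27.6 CPM. Of 6 genes of transport and breakdown, 1 rose and 2 fell. The PGE2 exporter Abcc4 rose 1.86-fold (edgeR adjusted p = 6.11e-05), the prostaglandin uptake carrier Slco2a1 fell 1.34-fold (adjusted p = 0.0104) and Zadh2, a prostaglandin reductase, fell 1.69-fold (adjusted p = 0.000115). At 1 h these 4 lists together held 1 call, Hpgds, which rose, where 11.2% of all tested genes were called (7.1% higher and 4.11% lower).

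Among 16 regulators of Ptgs2 transcription or mRNA stability, none rose and 4 fell at 1 h, where 7.1% of all tested genes were called higher and 4.11% lower. At 6 h 7 rose and 5 fell, where 23.9% were called higher and 22% lower. The 4 that fell at 1 h were Zfp36, an RNA-binding protein that destabilises AU-rich mRNAs (log2 fold change -1.61, edgeR adjusted p = 4.23e-06), its relative Zfp36l2 (-0.53, 0.0143), the early response factor Egr1 (-0.65, 0.0341) and the NF-kB inhibitor Nfkbia (-0.57, 0.014). At 6 h the largest changes were in Nfat5, the osmotic transcription factor (1.70, adjusted p = 4.36e-05), Zfp36l2 (1.37, 9.65e-07), Egr1 (-1.34, 4.25e-05) and Zfp36l1 (1.24, 2.74e-07). The median log2 fold change of the list was -0.01 at 1 h and 0.05 at 6 h, beside 0.00 and 0.05 over all tested genes.

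The second question was whether SFN changed the genes in WT cells. In isosmotic cells Ptgs2 and Ptger4 fell, and no other of the 8 was called, where SFN changed 2.84% of all tested genes (1.09% higher and 1.76% lower). After 1 h and after 6 h of stress none of the 8 genes was called between SFN and DMSO, against 0.0923% and 0.041% of all tested genes. In those comparisons 669 and 718 genes had an unadjusted p under 0.05 by edgeR, among them Ptgs1 and Ptger4 at 1 h and Ptgs2 at 6 h. DESeq2 on the same 16 libraries called none of the 8 either. Both fits include the Nrf2-/- replicates at 1 h that stood apart, and some fits on fewer libraries did call genes, as given below.

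Ptgs2 had 146 and 174 CPM in isosmotic cells given SFN, against 343 and 306 CPM given DMSO, 2.03-fold lower (log2 fold change -1.02 ± 0.12, edgeR adjusted p = 0.000211). Its neighbour Ptgs2os had 1.98 and 2.21 CPM against 2.12 and 2.34 CPM, a log2 fold change of -0.09 ± 0.26 (edgeR adjusted p = 0.936). Ptger4 had 36.0 and 38.7 CPM against 108 and 104 CPM, 2.83-fold lower (log2 fold change -1.50 ± 0.17, edgeR adjusted p = 9.69e-05). For both genes every SFN library lay below every DMSO library, and both calls held without any 1 library. Ptgs1 had 1.21 and 1.48 CPM against 1.95 and 1.86 CPM (edgeR adjusted p = 0.602) and Ptges2 had 32.4 and 30.2 CPM against 38.3 and 42.0 CPM (adjusted p = 0.213). Collecting duct markers also differed in this comparison, with 5 of 15 tested lower and none higher and a summed level of 2375 to 2612 CPM against 3309 to 3711 CPM, and their part in the result was not tested.

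Under stress the SFN difference was not called for either gene. At 1 h Ptgs2 had 243 and 252 CPM with SFN and 218 and 218 CPM with DMSO (log2 fold change 0.18 ± 0.12, edgeR adjusted p = 1). At 6 h it had 2421 and 2223 CPM with SFN and 1838 and 1791 CPM with DMSO (0.36 ± 0.12, adjusted p = 1, unadjusted p = 0.0104 by edgeR), and was called only in fits on fewer libraries. Ptger4 had 35.8 and 35.9 CPM with SFN and 25.9 and 25.0 CPM with DMSO at 1 h (0.50 ± 0.17, edgeR adjusted p = 1, unadjusted p = 0.00926), and 72.5 and 76.8 CPM against 68.3 and 62.9 CPM at 6 h (0.19 ± 0.16, adjusted p = 1).

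The change in the SFN difference was tested as an interaction. For Ptgs2 it was 1.20 ± 0.17 on the log2 scale between 1 h and isosmotic cells (edgeR adjusted p = 0.0032) and 1.38 ± 0.17 between 6 h and isosmotic cells (adjusted p = 0.000758). For Ptger4 it was 1.99 ± 0.23 (edgeR adjusted p = 0.000668) and 1.68 ± 0.23 (adjusted p = 0.00152). These 2 genes were the only ones of the 8 called in either interaction, which called 0.559% (0.487% higher and 0.0718% lower) and 0.759% (0.595% higher and 0.164% lower) of all tested genes. Both interactions use the isosmotic libraries, as do the stress comparisons. All 4 calls held in every alternative run.

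**Figure D3:**
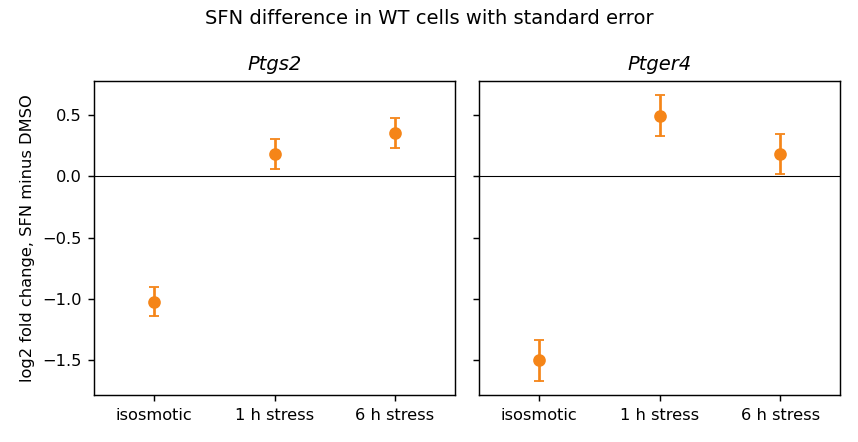
Log2 fold change between SFN-treated and DMSO-treated WT cells with its standard error, for Ptgs2 and Ptger4 in isosmotic cells and after 1 h and 6 h of stress, from edgeR's fit. Both genes lie below 0, at -1.02 and -1.50, in isosmotic cells, and above 0 at 1 h and 6 h, where no difference was called.

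The same interaction reads as a difference in the response to stress. In SFN-treated cells Ptgs2 rose at 1 h, from 146 and 174 to 243 and 252 CPM (1.55-fold, edgeR adjusted p = 0.00439), where it had fallen in DMSO-treated cells. This rise was lost without isosmotic SFN replicate 1 (adjusted p = 0.0696). At 6 h it rose 14.5-fold (log2 fold change 3.86 ± 0.14, edgeR adjusted p = 8.14e-11), against 5.59-fold in DMSO-treated cells. Ptger4, which fell at 1 h in DMSO-treated cells, stood at 36.0 and 38.7 CPM before and 35.8 and 35.9 CPM after 1 h with SFN (log2 fold change -0.06 ± 0.16, adjusted p = 0.909). At 6 h it rose with SFN, from 36.0 and 38.7 to 72.5 and 76.8 CPM (edgeR adjusted p = 0.00017), where it was below the isosmotic level with DMSO.

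Over the 8 genes, 2 rose and none fell at 1 h in SFN-treated cells, against 9.52% of all tested genes (5.94% higher and 3.58% lower), and 4 rose and 1 fell at 6 h, against 47.6% (24.7% higher and 22.9% lower). Ptgs1 went from 1.21 and 1.48 CPM to 0.678 and 0.974 CPM at 1 h (edgeR adjusted p = 0.408) and to 4.02 and 4.80 CPM at 6 h (3.26-fold, adjusted p = 0.00327). Ptges2 fell 1.42-fold at 6 h (edgeR adjusted p = 0.00763), a call that was lost without 6 h replicate 1 (0.0544). Ptger3 went from 0 and 3 counts to 11 and 20 counts at 1 h and 80 and 66 counts at 6 h, 12.03-fold (95% counting interval 3.75 to 61.5) and 67.1-fold (22.5 to 329). The call of Ptger3 at 1 h (edgeR adjusted p = 0.0209) was lost without isosmotic SFN replicate 1 (0.112) or 1 h replicate 2 (0.136). The change in its SFN difference between 1 h and isosmotic cells was not called (edgeR adjusted p = 0.624).

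In the lists of prostanoid genes, SFN changed 1 gene in isosmotic cells, Abcc4, which rose 1.42-fold (edgeR adjusted p = 0.0494). Among the 16 regulators, 4 fell with SFN in isosmotic cells and none rose, where 1.76% of all tested genes were called lower and 1.09% higher. They were Fos (log2 fold change -1.36, edgeR adjusted p = 0.00345), Nfkbia (-1.30, 5.6e-05), Zfp36 (-0.83, 0.00276) and Zfp36l1 (-0.81, 0.000267). Of the 16, only Nfkbia was called in the interaction at 1 h (1.43, edgeR adjusted p = 0.0018). In that at 6 h 4 of the 16 were called, Egr1 (1.28), Nfkbia (1.27), Zfp36l1 (1.03) and Zfp36 (1.01), all with a positive sign. Calls over all tested genes were mostly positive too, with 0.487% higher and 0.0718% lower at 1 h, and 0.595% and 0.164% at 6 h.

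**Figure D4:**
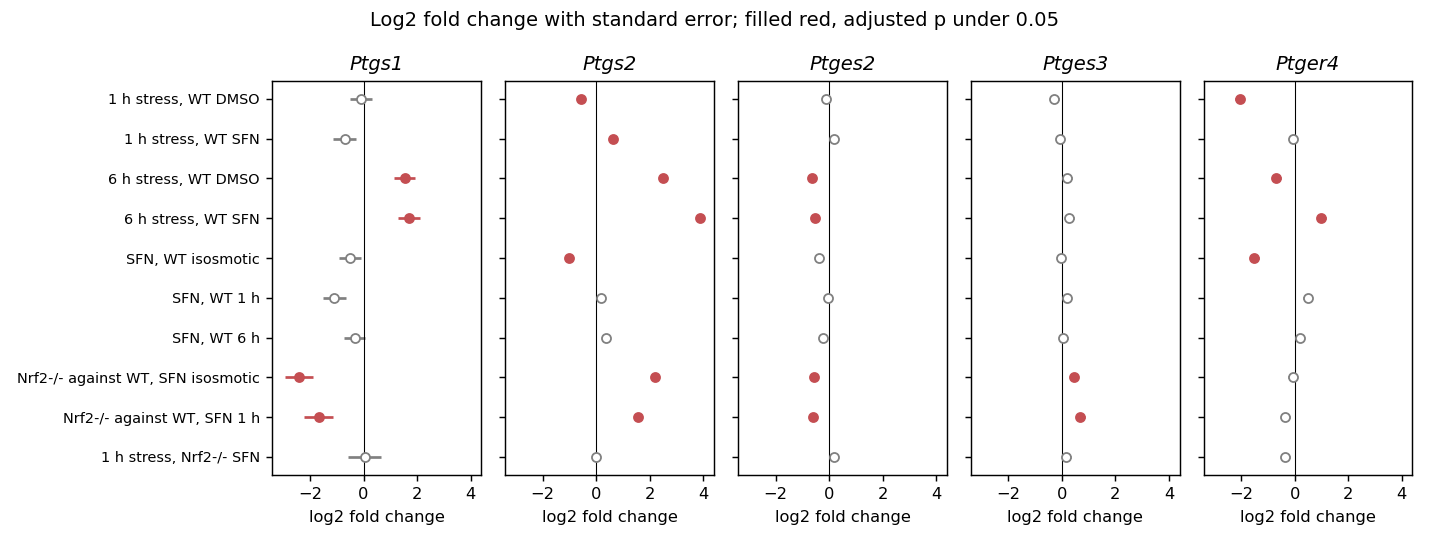
Log2 fold change with its standard error for Ptgs1, Ptgs2, Ptges2, Ptges3 and Ptger4 in 10 comparisons, from edgeR's fit on all libraries. Filled red points have an adjusted p under 0.05. Ptgs2 spans from -1.02 with SFN in isosmotic cells to 3.86 after 6 h of stress with SFN, and Ptges2 and Ptges3 stay between -0.64 and 0.69.

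The third question was how SFN-treated Nrf2-/- cells differed from SFN-treated WT cells. In isosmotic cells Ptgs2 and Ptges3 were higher and Ptgs1 and Ptges2 lower, 4 of the 8 genes, where 34.1% of all tested genes were called (15.7% higher and 18.4% lower). At 1 h 2 were higher and 2 lower again, against 31.5% of all tested genes (15.3% higher and 16.2% lower), and they were the same 4 genes in the same directions. The comparisons use separate libraries of the same 2 lines.

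Ptgs2 had 696 and 781 CPM in isosmotic Nrf2-/- cells against 146 and 174 CPM in WT cells, 4.61-fold higher (log2 fold change 2.21 ± 0.13, edgeR adjusted p = 5.96e-09). At 1 h it had 652 and 813 CPM against 243 and 252 CPM, 2.96-fold higher (1.56 ± 0.12, adjusted p = 2.13e-07). All Nrf2-/- libraries lay above all WT libraries that were not stressed for 6 h, DMSO included. Ptgs2os was higher as well, at 7.20 and 7.01 CPM against 1.98 and 2.21 CPM in isosmotic cells (log2 fold change 1.76 ± 0.26, edgeR adjusted p = 9e-05).

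Ptgs1 had 16 and 2 counts in isosmotic Nrf2-/- cells, or 0.455 and 0.0537 CPM, against 1.21 and 1.48 CPM in WT cells (5.33-fold lower, log2 fold change -2.42, edgeR adjusted p = 0.00205). The log2 fold change was -4.57 without Nrf2-/- replicate 1 and -1.57 without Nrf2-/- replicate 2, and both were called. At 1 h it had 0.283 and 0.231 CPM against 0.678 and 0.974 CPM (3.19-fold lower, adjusted p = 0.028), and this call was lost without WT replicate 2 (0.167) or Nrf2-/- replicate 2 (0.0704). Per kilobase, Ptgs2 stood at 1297 and 12326 times Ptgs1 in isosmotic Nrf2-/- libraries and 1952 and 2987 times at 1 h, against 99.4 to 304 times in the matched WT libraries, where the highest ratio rests on 2 counts of Ptgs1.

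Ptges2 had 21.1 and 21.3 CPM in isosmotic Nrf2-/- cells against 32.4 and 30.2 CPM (1.48-fold lower, edgeR adjusted p = 0.0056). At 1 h it had 27.8 and 19.8 CPM against 37.5 and 33.8 CPM (log2 fold change -0.58 ± 0.14, edgeR adjusted p = 0.00482), lost without WT replicate 1 (0.0572). Ptges3 had 430 and 438 CPM against 300 and 333 CPM (1.37-fold higher, edgeR adjusted p = 0.0458), and this call was lost without any 1 of the 4 libraries (adjusted p = 0.0820 to 0.238). It was called in 8 of the 23 alternatives run. At 1 h it had 366 and 607 CPM against 296 and 307 CPM (1.61-fold higher, adjusted p = 0.00527). A fit on the 4 libraries at 1 h alone, where the Nrf2-/- replicates stand apart, called Ptgs2 but not Ptgs1, Ptges2 or Ptges3 (adjusted p = 0.105, 0.178 and 0.195).

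No receptor was called between the genotypes in the main test. Ptger4 had 32.3 and 38.8 CPM in isosmotic Nrf2-/- cells against 36.0 and 38.7 CPM in WT cells, with overlap (log2 fold change -0.07 ± 0.16, edgeR adjusted p = 0.802), and a log2 fold change of -0.35 ± 0.17 at 1 h (adjusted p = 0.122). The 1 h value ranged from -0.74 to -0.04 over the 23 alternatives run, and 2 of them called it. Ptger3 was at 0 and 0 counts in isosmotic Nrf2-/- cells. Hpgd had 2 and 8 counts there and 0 and 0 counts in WT cells, too few for a test.

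The Nrf2-/- line differed from WT in epithelial genes too. Of 15 collecting duct markers, 4 were higher and 5 lower in isosmotic cells, with Cdh16 at a mean of 20.5 against 200 CPM, Pax2 at 26.9 against 142 CPM, Krt7 at 904 against 180 CPM and Epcam at 284 against 48.8 CPM. The summed level of the list was 3192 to 3457 CPM against 2375 to 2612 CPM. The part of these differences in the prostaglandin genes was not tested. Among genes of the pathway, Pla2g4a, the cytosolic phospholipase that releases arachidonate, was 2.27-fold higher (edgeR adjusted p = 1.28e-07) and the carrier Slco2a1 4.06-fold lower (adjusted p = 1.42e-08). Other phospholipases went both ways, with Pla2g5 at a mean of 2.32 against 0.0268 CPM and Pla2g6 at 21.2 against 46.2 CPM. Pla2g5 was at or near 0 in all WT conditions and passed the filter through the Nrf2-/- libraries alone. Of the 9 phospholipases tested 2 were higher and 1 lower, and of the 6 transport and breakdown genes 2 were lower, shares near the 34.1% of all tested genes called (15.7% higher and 18.4% lower).

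With stress, 1 of the 8 genes was called in Nrf2-/- cells at 1 h, Ptger3, where 7.17% of all tested genes were called (4.36% higher and 2.81% lower). It went from 0 and 0 counts to 21 and 24 counts, at least 7.76-fold higher (edgeR adjusted p = 0.00331). Ptgs2 stayed at 652 and 813 CPM after 696 and 781 CPM (log2 fold change -0.01 ± 0.12, adjusted p = 0.995), within the spread of the replicates. The difference between this response and the rise in SFN-treated WT cells was -0.64 ± 0.17 on the log2 scale and was not called (edgeR adjusted p = 0.251, unadjusted p = 0.00207), and none of the 8 genes was called in that interaction, against 0.123% of all tested genes (0.0615% higher and 0.0615% lower), 1433 of which had an unadjusted p under 0.05. DESeq2 called none of the 8 there. It was called for Ptgs2 without Nrf2-/- 1 h replicate 1 and without Nrf2-/- 1 h replicate 2.

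The genes most like Ptgs2 over the 8 condition means of log2 CPM, among genes with at least 50 counts per library on average, were Spp1 (r = 0.994), Lrrfip1 (0.993) and Rgs16 (0.993), and 155 of 12290 genes had r over 0.95. For Ptgs1 they were Pelo (0.991), Hyal2 (0.990) and Gm19705 (0.987), and for Ptger3 Gm5176 (0.989), Cspg5 (0.988) and Ampd1 (0.985). All points of a pair come from the same 16 libraries, and the correlations are a description.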

How the data were processed

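Raw counts per gene symbol of 16 libraries, 2 per condition, were analysed. The authors deposited these counts without normalization, 1 table per library. Per their methods, reads were aligned to mm10 with Hisat2 and counted with featureCounts, and the submitters' notes list Bowtie2 without giving its role. Versions, annotation and strand setting are not given in the sources used here. The labels name mIMCD3 throughout, except 1 protocol line on primary cells. Lines without a gene symbol, 2 in one library and 3 in another, held no value and were left out.

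Differential expression was tested with edgeR 4.0.16 under R 4.3.3 (filterByExpr, TMM, robust quasi-likelihood F-test) on all 16 libraries, with 1 coefficient per condition. A gene was called at a Benjamini-Hochberg adjusted p under 0.05 over 19509 genes. With 2 libraries a condition, p-values rest on 1 spread per gene, estimated from the replicates of all 8 conditions together. The Nrf2-/- replicates at 1 h, which stood apart, enter that spread in every comparison, those of WT cells included. The 8 tested genes were tested in all 14 comparisons. Of the other lists, at most 4 called genes per list and comparison are named, largest change first. The genes and lists were chosen with earlier results of these data known. Gene lengths and positions were read from GENCODE M21 (GRCm38). The script was tested on simulated counts. Alternatives were DESeq2 1.42.0, other normalizations and filters, other sets of libraries, a replicate block and each library left out. The result of 1 gene outside the 9 is not reported here.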

Additional observations from a re-analysis of the deposited data

Results flagged for a closer look

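The difference between SFN-treated and DMSO-treated WT cells was itself different between isosmotic and stressed cells for 2 genes, by a test of the interaction. On the log2 scale the SFN difference of Ptgs2 was higher by 1.2 at 1 h and by 1.38 at 6 h than in isosmotic cells. That of Ptger4 was higher by 1.99 at 1 h and by 1.68 at 6 h. In both genes the isosmotic SFN libraries lay below the isosmotic DMSO libraries. Under stress the SFN libraries lay above the DMSO libraries of the same time, though the main test called no difference there. For Ptgs2 isosmotic SFN was the lowest of the 8 conditions, at a mean of 160 CPM. For Ptger4 isosmotic DMSO was the highest, at 106 CPM, and isosmotic SFN, at 37.3 CPM, was near SFN at 1 h, at 35.9 CPM.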

How the results depend on the processing

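The 36 called gene results were recomputed under the alternatives, which gave 844 values. Of these, 806 kept direction and side of the threshold, 38 lost the call and 0 turned direction. Requiring at least 10 counts in every library, which removes Ptgs1 and Ptger3, left 3 genes called at 6 h with DMSO, 3 at 6 h with SFN, 1 at 1 h with SFN and 0 at 1 h in Nrf2-/- cells. With the 12 WT libraries alone, SFN against DMSO gave 1 call at 1 h (Ptger4) and 1 at 6 h (Ptgs2). With only the libraries compared, it gave 3 at 1 h (Ptgs2, Ptges3 and Ptger4) and 1 at 6 h (Ptgs2), Nrf2-/- against WT at 1 h gave 1 (Ptgs2), and 1 h of stress in Nrf2-/- cells gave 0. Without the filter, the genotype interaction gave 1 (Ptgs2).

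With each library left out, the count of calls ranged from 0 to 2 for 1 h with SFN (0 without isosmotic SFN replicate 1, 1 without 1 h replicate 2), from 0 to 1 for SFN at 1 h and at 6 h (1 without either Nrf2-/- 1 h library), from 1 to 3 for 1 h in Nrf2-/- cells (2 without replicate 1, 3 without replicate 2) and from 0 to 2 for the genotype interaction (2 without either). Ptges3 between 6 h and 1 h and between genotypes in isosmotic cells also lost its call with library totals alone (adjusted p = 0.197 and 0.0560, edgeR), an alternative added after the data were seen. Ptger3 between 6 h and 1 h did so too (0.0507), as did Ptges2 there without 6 h replicate 2 (0.0510), and Ptger3 at 1 h in Nrf2-/- cells with only the libraries compared (0.0868). The causes were not tested. Replicate numbers, taken from the sample titles, marked no clear shift common to the conditions. Correlations of replicate differences between conditions were -0.0794 to 0.123, and 1 of 28 was over 0.1. This does not show that the samples were prepared unpaired. With the number as a replicate block the counts were those of the main test, for example 5 at 6 h with DMSO. Low counts limit what can be said of Ptges, Ptger1 and Hpgd.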

Other observations

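Lipoxygenase and leukotriene genes, which use the same arachidonate, were mostly rare. Of 11 listed genes 6 were tested, and after 6 h of stress in DMSO-treated cells 2 rose and 1 fell by edgeR's test, a share near the 45.9% of all tested genes called (23.9% higher and 22% lower). Alox15 went from a mean of 0 to 0.835 CPM at 1 h and 1.30 CPM at 6 h, and Alox12e from 0 at both earlier times to 1.13 CPM at 6 h. Both could pass the filter only through stressed libraries, which raises the share called higher. Lta4h, the leukotriene A4 hydrolase and the abundant gene of the list, fell from 95.8 to 79.6 CPM (adjusted p = 0.0309).

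In SFN-treated Nrf2-/- cells under isosmotic conditions 5 of the 16 regulators of Ptgs2 were higher and 5 lower than in WT cells, where 34.1% of all tested genes were called (15.7% higher and 18.4% lower). The largest differences were in Zfp36l2 (log2 fold change 1.28, edgeR adjusted p = 2.04e-06), Cebpd (-1.19, 0.000991), Creb1 (0.79, 0.00145) and Tia1 (0.79, 0.000235).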
